A study of Mus musculus with 12 samples.

Results

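Striated muscle transcripts were followed through every library of a mouse vein RNA-seq series. The genes were 10 of the 55414 in the count table: Myh6, Myl7, Nppa, Tnnt2, Actc1, Acta1, Ckm, Mylpf, Tnnt3 and Myh4. They were listed by symbol and matched to Ensembl identifiers. They were chosen by their counts in these same libraries, since earlier results of the data had shown them high in single libraries, so their levels are given as a description without a test. The samples were the infrarenal inferior vena cava (IVC) of 12 C57BL/6 mice aged 10 weeks, 6 with an aortocaval fistula (AVF), made with a needle passed through the aorta into the IVC, and 6 with a sham operation, collected on postoperative day 7. Each operation had 3 female and 3 male mice and each mouse gave 1 library of poly(A) RNA. The mice were wild-type, and all of them, sham included, were given isoflurane and buprenorphine and had a laparotomy with clamping of the vessels, so that the groups differ in the needle puncture. Libraries are named by sample number: #04, #05 and #06 were male AVF, #07, #09 and #11 female AVF, #16, #17 and #18 male sham, and #19, #22 and #23 female sham.

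Striated muscle contracts through sarcomeres, in which myosin heavy and light chains pull on actin filaments gated by the troponin complex. Heart and skeletal muscle use different genes for most of these parts, and within the heart the atria and ventricles differ again in their light chains. The wall of the IVC is made of endothelium, smooth muscle and adventitia, while in mice a coat of heart muscle lies around the caval and pulmonary veins close to the heart.

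Libraries held 15177881 to 22717423 counts, and 3 counts, the least taken as detected, were 0.127 to 0.323 normalized CPM (CPM of the normalized library size). The share of ribosomal RNA genes was 46.0% in sample #07 and 2.39% to 12.6% elsewhere. The vein's own markers were high in all 12 libraries: 10 smooth muscle genes summed to 2808 to 6020 normalized CPM and 8 endothelial genes to 1746 to 2970. In whole tissue, fewer muscle cells and less RNA in each cell cannot be told apart.

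Of the 10 genes, 9 had a promoter in the RefSeq table (GRCm38.p6; Tnnt3 was not matched). A CArG box, the site bound by serum response factor, stood in 4 of the 9, against 1.63% of 32851 promoters of the same 300 bases (searched on both strands, on which it reads alike). These 4 are shown because they fall on both sides of the pattern described here: Myl7 was high only in sample #19, Acta1 and Myh4 were highest in sample #23, and Actc1 was present in every library. Each window runs from 120 bases before to 20 bases after the annotated start, 5′ to 3′ on the gene's strand, with the CArG box in capitals. Positions are those of an exact match to GRCm39 on the gene's chromosome.
Myl7, chr11:5848763-5848902, minus strand: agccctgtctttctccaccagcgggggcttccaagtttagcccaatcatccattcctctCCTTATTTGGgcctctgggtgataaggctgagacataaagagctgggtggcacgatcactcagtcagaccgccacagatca
Actc1, chr2:113883337-113883476, minus strand: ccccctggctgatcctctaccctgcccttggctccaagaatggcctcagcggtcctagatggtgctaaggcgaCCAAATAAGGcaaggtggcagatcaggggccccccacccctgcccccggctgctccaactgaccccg
Acta1, chr8:124621495-124621634, minus strand: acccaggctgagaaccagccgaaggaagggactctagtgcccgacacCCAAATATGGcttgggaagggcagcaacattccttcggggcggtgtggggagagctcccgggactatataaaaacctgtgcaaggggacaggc
Myh4, chr11:67128518-67128657, plus strand: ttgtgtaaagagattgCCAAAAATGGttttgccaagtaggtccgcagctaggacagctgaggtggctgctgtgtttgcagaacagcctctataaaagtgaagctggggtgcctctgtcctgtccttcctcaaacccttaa
The box began 61 bases before the start in Myl7, 47 in Actc1, 73 in Acta1 and 104 in Myh4. The E-box CAGCTG stood before 6 of the 9 genes (Nppa, Tnnt2, Acta1, Ckm, Mylpf and Myh4) against 16.3% of all promoters, and the MEF2 box before Myh4 alone against 3.19%. These counts are of genes and the shares over all are of promoters, and Tnnt2 had more than a single promoter. A match of letters is a description of the window and no measure of binding.

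Myh6, Myl7 and Nppa, 3 genes of heart muscle, were high in a single library, sample #19, a female sham. Myh6 (chromosome 14, 55179367 to 55205887 on GRCm39, minus strand, 39 exons) encodes alpha myosin heavy chain, the main heavy chain of the adult mouse heart. Its level was 408 normalized CPM in sample #19, from 7816 counts. In AVF it had a lowest value of 0, a median of 0.0772 and a highest of 0.469 normalized CPM, and the other 5 sham libraries had 0 to 3 counts. The second library, #11 (female AVF), held 10 counts, and sample #19 was 870-fold above it.
Myl7 (chromosome 11, 5845449 to 5848792, minus strand, 7 exons) encodes the regulatory light chain of atrial myosin. It had 107 normalized CPM (2060 counts) in sample #19, and at most 1 count in each of the other 11 libraries, 8 of which had none. Against the floor of 3 counts per library, sample #19 was at least 333-fold higher. Nppa (chromosome 4, 148085091 to 148086583, plus strand, 3 exons), the gene of atrial natriuretic peptide, had 42.9 normalized CPM (823 counts) in sample #19 and 0 counts in all 11 others, so sample #19 was at least 133-fold above the same floor.

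The share of all counts that fell on these 3 genes was 0.0555% in sample #19 (exact binomial 95% interval 0.0544% to 0.0565%; these intervals cover counting error only). Elsewhere it was at most 5.23e-05%, in sample #11, where the 10 counts were all of Myh6. Samples #22 and #23, the other female sham libraries, had 1 and 2 counts over the 3 genes.

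**Figure D1:**
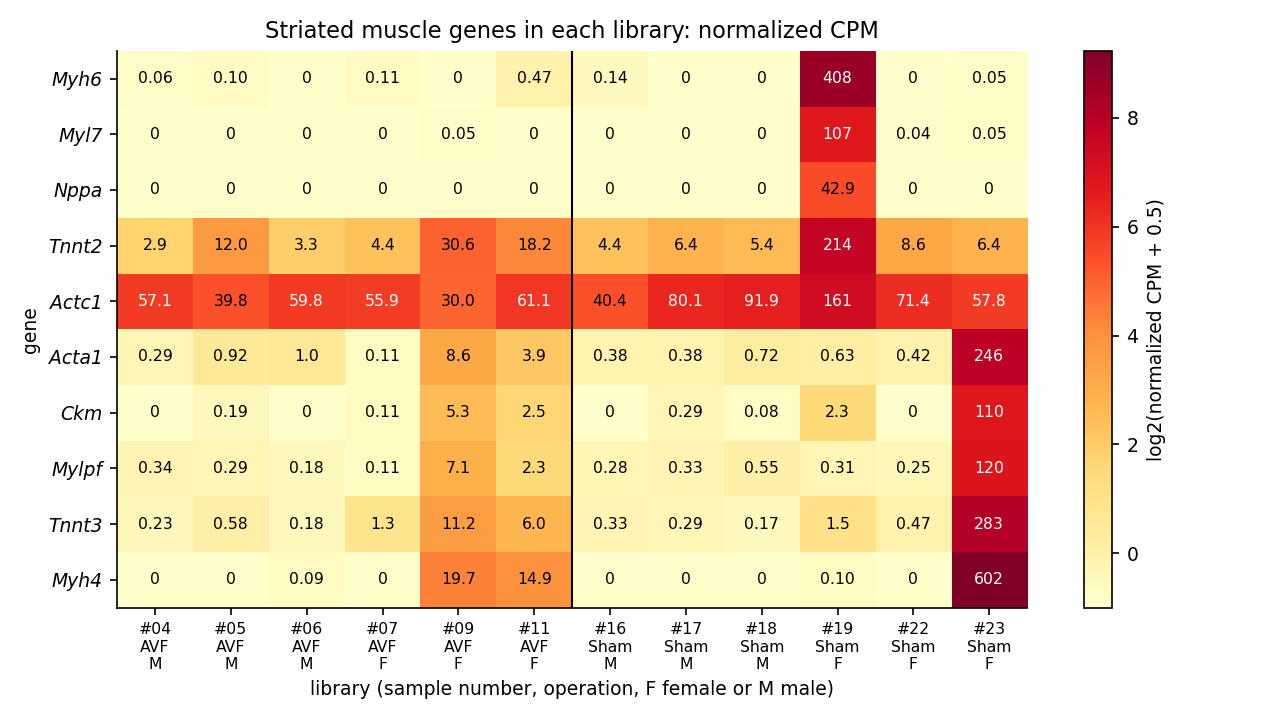
Normalized CPM of the 10 genes (rows) in the 12 libraries (columns, AVF left of the line and sham right of it), coloured by log2(normalized CPM + 0.5) and printed in each cell. Myh6, Myl7 and Nppa stand out in sample #19, the 5 skeletal muscle genes in sample #23 with lower levels in #09 and #11, and Actc1 is seen in every library.

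Tnnt2 and Actc1 were also highest in sample #19 but had a level of their own in every library. Tnnt2 (chromosome 1, 135763738 to 135780315, plus strand, 13 exons) encodes the cardiac form of troponin T, which anchors troponin to the thin filament. Its lowest, median and highest values were 2.86, 8.21 and 30.6 normalized CPM in AVF and 4.39, 6.41 and 214 in sham. Sample #19 stood 7.01-fold over the second highest, #09. Samples #09, #11 and #05 followed with 30.6, 18.2 and 12.01 normalized CPM, all AVF, and the other 8 libraries had 2.86 to 8.59. The groups overlapped. Samples #09 and #05 were also those with albumin transcripts (Alb at 5585 and 1850 normalized CPM, against 0.127 to 2.67 in the other 10), sample #11 had 0.750, and the part of liver RNA in the Tnnt2 level was not tested.

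Actc1 (chromosome 2, 113876266 to 113884043, minus strand, 7 exons) encodes cardiac alpha actin, which smooth muscle can also express. In AVF it had 30.0, 56.5 and 61.1 normalized CPM as lowest, median and highest, and in sham 40.4, 75.7 and 161. Sample #19 was 1.75-fold over the next library, #18 with 91.9. The lowest level was that of sample #09. Near-identical actins share sequence: Acta1 (skeletal) and Actc1 had no 101-base window (the read length) in common with a transcript of another gene, and Acta1 shared 3.52% of its 31-base words with Actb, so a part of a read pair can be shared. Acta2 and Actg2, the smooth muscle actins, were at 877 to 2066 and 69.5 to 304 normalized CPM over the 12 libraries.

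Levels of different genes were compared per kilobase of the canonical transcript. In sample #19 the atrial light chains were high and the ventricular ones near the floor. Myl7 had 178 normalized CPM per kilobase in that library, rank 208 of 54393 genes, Tnnt2 had 121 (rank 341), Myh6 had 65.3 (rank 667) and Nppa 45.1 (rank 1008). The atrial light chain Myl4 had 143 per kilobase (rank 281). Of the ventricular light chains, Myl2 had 0.0630 and Myl3 0.388 normalized CPM per kilobase. Myh7, the beta heavy chain, had 0.0510. Since Myh6 is the main heavy chain of the adult mouse heart, the heavy chains do not tell atrium from ventricle. The heart troponins Tnni3 (50.8) and Tnnc1 (28.1) were also high. Expected counts can be split between close relatives: Myh6 shared 11.0% of its 101-base windows with Myh7, so that a small Myh7 or Myh6 value next to a large one is uncertain.

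**Figure D2:**
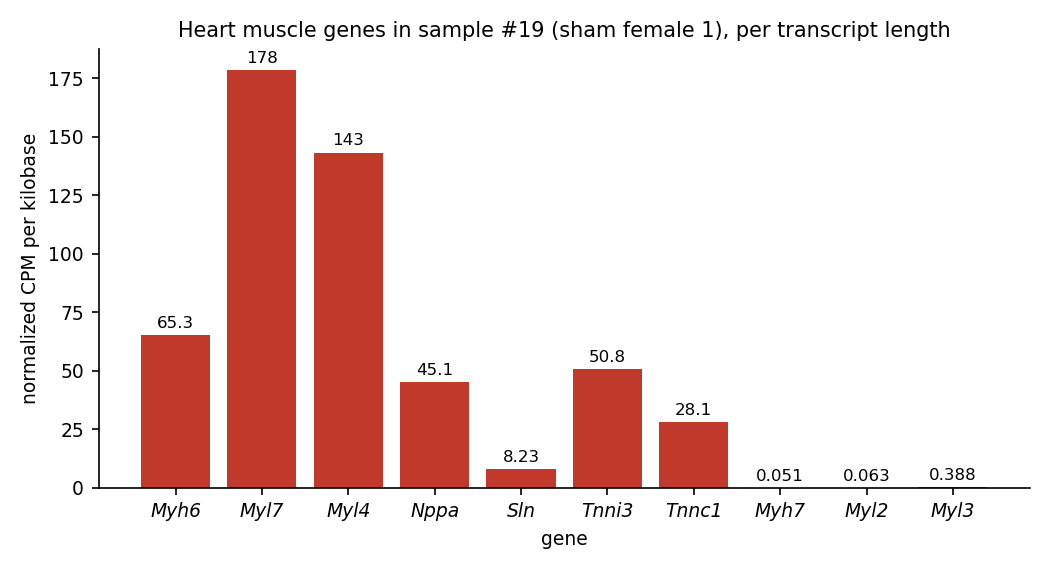
Normalized CPM per kilobase of the canonical transcript (bars, from 0) of heart muscle genes in the single library #19. Bars of Myl7, Myl4 and Myh6 reach 178, 143 and 65.3, while Myh7, Myl2 and Myl3 have 0.388 or less.

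Of 16 further genes known from heart muscle, 7 of the 14 with more than 12 counts were in sample #19 over 10-fold above the median of the 8 libraries other than #09, #11, #19 and #23 and above the highest of them, against 0.217% of all 22163 genes. The highest levels of the list in #19 were those of Myl4 (135 normalized CPM in #19, 0.920 to 4.31 elsewhere), Ryr2, the cardiac calcium release channel (88.3, against 5.09 to 28.4), and Tnni3, cardiac troponin I (46.5, against 0.108 to 0.532), of which Ryr2 did not pass the 10-fold mark. Mybpc3, cardiac myosin-binding protein C, had 22.6 normalized CPM there and at most 0.234 in any other library, while Bmp10 and Hcn4 were not raised (0 and 2.35). In the list of slow-fibre genes that the heart shares, Casq2, Pln and Myoz2 were highest, at 49.4, 36.0 and 25.0 normalized CPM in #19. In that list 3 of 8 genes passed the same 10-fold mark, and Casq2 and Pln were not among them. Brown fat transcripts were also most abundant in sample #19: 3 of 6 marker genes were highest there, and the 6 summed to 1768 normalized CPM against 102 to 1154 in the other sham and 43.8 to 327 in AVF. Ucp1, the defining gene, was at 1088 in #19, and the part of brown fat in the muscle levels was not tested.

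Acta1, Ckm, Mylpf, Tnnt3 and Myh4, the 5 genes of skeletal muscle, were highest in sample #23, also a female sham, and present at lower levels in samples #09 and #11, both female AVF. Acta1 (chromosome 8, 124618501 to 124623661, minus strand, 7 exons) encodes skeletal alpha actin. It had 246 normalized CPM (5081 counts) in sample #23, 8.60 in #09, 3.94 in #11 and 0.108 to 1.04 in the other 9. Ckm (chromosome 7, 19138701 to 19157965, plus strand, 8 exons), muscle creatine kinase, which buffers ATP, had 110 normalized CPM (2272 counts) in #23. It had 5.26 in #09, 2.53 in #11, 2.35 in #19 and at most 0.286 elsewhere. Sample #19 therefore held Ckm at a level close to that of #11, while its other 4 skeletal genes were at 0.104 to 1.51. The source of Ckm in #19, the library with the heart genes, was not tested.

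Mylpf (chromosome 7, 126807207 to 126813470, plus strand, 7 exons), the fast regulatory light chain, had 120 normalized CPM (2475 counts) in #23, 7.06 in #09, 2.30 in #11 and 0.108 to 0.550 in the other 9. Tnnt3 (chromosome 7, 142048605 to 142070280, plus strand, 17 exons), fast troponin T, had 283 normalized CPM (5849 counts) in #23, 11.2 in #09, 6.04 in #11 and 0.169 to 1.51 elsewhere. Myh4 (chromosome 11, 67128336 to 67151274, plus strand, 38 exons), the heavy chain of the fastest fibres (IIb), had 602 normalized CPM (12433 counts) in #23, 19.7 in #09, 14.9 in #11 and at most 2 counts in each of the other 9 libraries. As medians, the 5 genes were at 0.0452 to 0.982 normalized CPM in AVF and 0 to 0.525 in sham, so that the highest library set the mean of both groups while the medians stayed near the floor. None of the 5 exceeded 19.7 normalized CPM outside sample #23.

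Per kilobase of transcript, Tnnt3, Mylpf and Acta1 had 161, 156 and 149 normalized CPM in sample #23 (ranks 197, 211 and 219 of 54393 genes), and Myh4 had 101 (rank 371). The other heavy chains of fast fibres were lower: Myh1 (type IIx) had 20.4 per kilobase in #23, and Myh2 (type IIa) 0.0854, against a median of 0.157 in the 8 other libraries. Reads shared between Myh4 and Myh1 cover 2.20% of Myh4's 101-base windows. The share of counts on the 5 skeletal genes was 0.152% in #23 (exact binomial 95% limits of 0.151% and 0.154%), 0.00521% in #09 (0.00488% to 0.00555%), 0.00332% in #11 (0.00306% to 0.00358%) and 4.87e-04% in #19 (3.94e-04% to 5.96e-04%). The other 8 libraries had 8.2e-05% to 2.13e-04%. Of the 94 counts behind the share in #19, 45 were of Ckm.

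The mixture of genes in samples #09 and #11 was compared with that in #23. For the 24 genes (the 5 members and 19 of the fast list) with at least 100 counts in #23 and over 10-fold the median of the 8 other libraries, the level above that median in #09 was 4.75% of that in #23 in the median, with 1.11% to 10.5% as extremes. The members were at 3.27% (Myh4) to 5.67% (Mylpf). In sample #11 the median was 1.84%, the members were at 1.44% (Acta1) to 2.48% (Myh4), and the extremes were -0.999% (Klhl41, which was under the median of the 8) and 8.12% (Ryr1). A gene expressed by other cells of the vein adds to such a ratio. In sample #19 the median was 0.422%, with 31.04% for Pgam2 and 30.0% for Klhl41, genes of muscle energy use and thin filament turnover that the heart shares. Myl1, a fast light chain, followed with 20.5%.

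**Figure D3:**
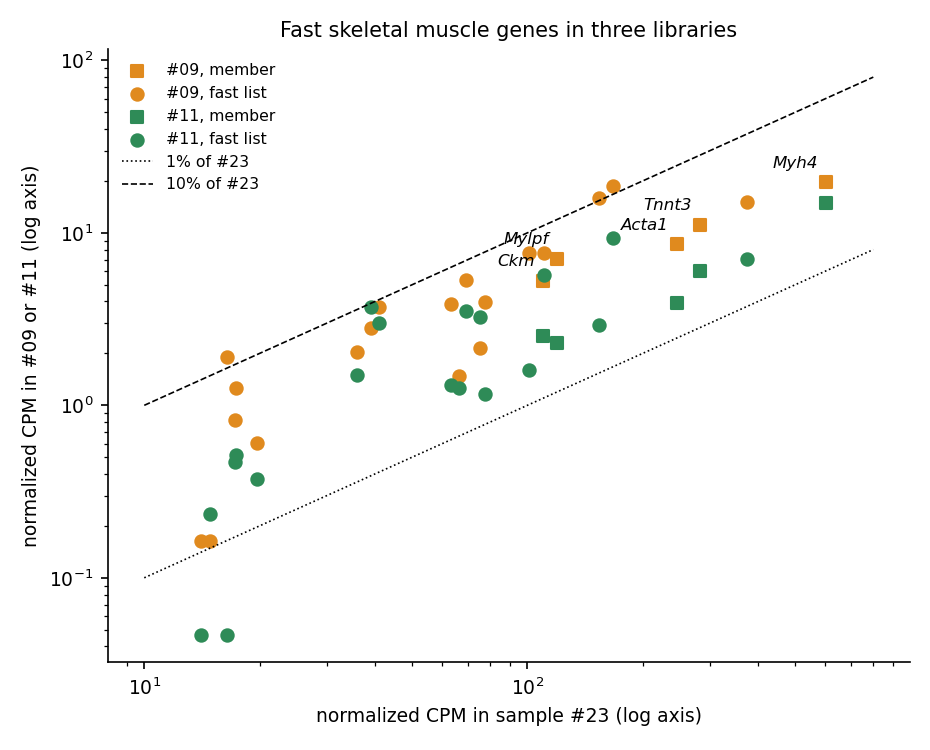
Normalized CPM of 24 fast skeletal muscle genes in samples #09 and #11 (y) against #23 (x), both on log axes, with squares for the members, circles for the fast list, and lines at 1% and 10% of #23. Most points of both libraries lie between the lines, with #09 mostly above #11.

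Of 24 further fast skeletal genes, 23 were highest in sample #23, against 9.06% of all genes with more than 12 counts. In #23, 19 were over 10-fold above the median of the 8 other libraries and above the highest of them, against 0.289%. Atp2a1, the calcium pump of fast fibres, had 375 normalized CPM in #23, 15.1 in #09 and 7.08 in #11. Myl1 (168) and Myh1 (154) followed. In the list of sarcomere and energy genes common to both muscles, 12 of 19 passed the 10-fold mark in #23 and 14 of 19 in #19. Titin (Ttn), the giant spring of the sarcomere, had 236 and 163 normalized CPM in these, 11.9 in #09 and 5.67 in #11, and at most 1.62 elsewhere. Xirp2 had 142 in #23 and 12.6 in #19, and Myom1 ran from 38.2 to 107 over all 12 libraries.

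Of 12 genes of muscle precursors and developing fibres, 3 exceeded 3 counts in any library. Myod1, Myog, Pax7 and Mymk, which drive or mark myogenesis, had 0 counts in all 12. Myf6, the regulator kept in adult fibres, had 0.968 normalized CPM in #23 and 0 in every other library. Myh8 (perinatal) was highest in #19 with 1.88 and Musk in #17 with 1.53. Neuronal markers were also highest in sample #23, in 6 of 6 genes (sum of 957 normalized CPM, against 239 to 835 in the other sham and 109 to 563 in AVF). In sample #09, 7 of 8 hepatocyte genes were highest (sum of 9833), and in #11 all 6 erythroid genes were highest (19630). The part of these cells in the muscle levels was not tested.

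The genes whose profile over the 12 libraries was closest to the 2 sets were sought among 22153 others, by Pearson's r of log2(normalized CPM + 0.5), as a description in which 1 library carries most of the r. The 8 closest to the mean of Myh6, Myl7 and Nppa had r of 0.992 to 0.999. They were Mybphl, Sln and Mybpc3, all of heart or slow muscle lists, Tecrl, Tmem163 and the noncoding Gm31659, Gm12295 and 4930512H18Rik. Their levels in #19 ran from 1.04 (Gm31659) to 22.6 normalized CPM (Mybpc3). The 8 closest to the mean of Ckm, Mylpf, Tnnt3 and Myh4 were Pvalb, Tnni2, Mybpc1, Myoz1, Mybpc2, Atp2a1, Myot and Neb, with r of 0.955 to 0.986. All of these are in the fast list, and Pvalb, the calcium buffer of fast fibres, had 101 normalized CPM in #23, 7.61 in #09, 1.59 in #11 and 0 in #19.

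Whether the muscle genes differed between AVF and sham was asked of the 5 further lists, 82 genes in all. Of the 10 members, 7 passed the filter of more than 1 CPM in at least 2 samples, and Myh6, Myl7 and Nppa did not, since they passed it in 1 library only. Of the 82, 49 were tested: edgeR's quasi-likelihood test called 7 lower and 0 higher in AVF at an adjusted p under 0.05. Among all 15912 tested genes 5.13% were called lower and 8.63% higher. All 7 also met the threshold of a 2-fold change for a DEG (differentially expressed gene), which 1.4% of all genes met in the lower and 3.37% in the higher direction. None of the 49 was higher at an unadjusted p under 0.05 either, or by the exact test of edgeR or DESeq2, while 28 were lower at an unadjusted p under 0.05, which 31.6% of all 15912 genes met in either direction. Without samples #19 and #23, 34 of the list genes could be tested, and 15 were higher and 3 lower in AVF at an unadjusted p under 0.05, against 25.9% of 15744 genes in either direction. The other 15 of the 49 passed the filter with the help of these 2 sham libraries, which favours a lower fitted value in AVF, so the counts and medians over all 49 describe the genes that passed and do not show a lower level in AVF. The list medians (log2, AVF against sham) were -1.52 for the 9 heart genes tested (2 called lower), -0.58 for 3 slow fibre genes (1 called), -2.61 for 18 fast fibre genes (1 called), -3.86 for 17 shared genes (3 called) and -1.35 for 2 developmental genes (0 called), against -0.01 for all genes tested. Without samples #19 and #23 they were -0.0089 for 7 heart genes, -0.33 for 3 slow fibre genes, 1.20 for 16 fast fibre genes, 0.36 for 7 shared genes and -0.44 for 1 developmental gene. Samples #09 and #11, both AVF, remain in that fit and held fast skeletal transcripts. With them left out too, 26 list genes could be tested. Of these, 5 were higher and 4 lower in AVF at an unadjusted p under 0.05 (edgeR quasi-likelihood), against 21.6% of 15270 genes. The medians were then -0.21 for 6 heart, -0.32 for 3 slow, 0.535 for 11 fast, -0.50 for 5 shared and -0.68 for 1 developmental gene.

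The 7 genes fell into 2 kinds by how far the call held when libraries were left out. Cox7a1, the muscle form of a cytochrome oxidase subunit, had 1.87, 2.60 and 6.63 normalized CPM as lowest, median and highest in AVF and 7.44, 21.7 and 46.5 in sham. It was lower by log2 -2.82 ± 0.48 (SE; adjusted p = 0.00326, edgeR quasi-likelihood). Fabp3, a carrier of fatty acids, had 2.01, 5.26 and 8.10 in AVF and 8.01, 21.0 and 98.1 in sham, a change of log2 -2.65 ± 0.57 (adjusted p = 0.0117). Pln, the brake on the calcium pump of heart and slow fibres, had 2.25, 4.00 and 5.77 in AVF and 6.56, 10.4 and 36.0 in sham, log2 -1.81 ± 0.39 (adjusted p = 0.0122). Cox7a1 and Pln did not overlap between the groups and Fabp3 overlapped in 1 library. The share of all genes without overlap is not given here, so this describes these 3 genes only. All 3 stayed under an adjusted p of 0.05 in each of 24 other fits. Without samples #09, #11, #19 and #23 the changes were log2 -2.56, -1.75 and -1.09 (adjusted p 0.0473, 0.0356 and 0.0361). Cox7a1 and Fabp3 are also genes of brown fat, whose markers were summed above. In the libraries other than #09, #11, #19 and #23, Pln was at 3.555 to 5.77 normalized CPM in 4 AVF and 6.56 to 11.84 in 4 sham. Which cells held it there was not tested.

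Sbk3 and Sbk2, heart kinases, Tcap, a cap of titin, and Myl1, the fast essential light chain, were called less steadily. Of the 12 fits that leave out 1 library, the adjusted p stayed under 0.05 in 6 for Sbk3, 4 for Sbk2, 5 for Tcap and 3 for Myl1. Sbk3 had 0 to 0.271 normalized CPM in AVF, 0.169 to 0.567 in the 4 sham libraries other than #19 (13.3) and #23 (1.31), and log2 -5.47 ± 1.47 (adjusted p = 0.0295). Tcap had 28.3 in #19, 11.8 in #23 and at most 0.986 elsewhere, log2 -5.14 ± 1.47 (adjusted p = 0.0375). Sbk2 and Myl1 had log2 -2.25 ± 0.64 (adjusted p = 0.0366) and -2.22 ± 0.68 (adjusted p = 0.0458). Without sample #19, or without #23, Sbk3, Sbk2 and Tcap no longer passed the filter, and without #23 the change of Myl1 was -1.09 (adjusted p = 0.106). A different gene was then called higher in AVF: without #19 it was Casq2, calsequestrin of heart and slow fibres (log2 1.28, adjusted p = 0.00909), and without #23 it was Ryr1, the skeletal calcium release channel (log2 1.88, adjusted p = 0.0377). Ryr1 had 2.79 normalized CPM in #09 and 3.70 in #11, against a median of 0.569 in the 8 other libraries. Without #09, #11, #19 and #23 Ryr1 was not called, and Casq2 was (log2 1.19, edgeR quasi-likelihood adjusted p = 0.0267). Casq2 had 18.6 to 38.997 normalized CPM in AVF and 7.74 to 15.8 in sham other than #19 (49.4), with log2 0.68 ± 0.41 and an adjusted p of 0.283 over all 12.

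**Figure D4:**
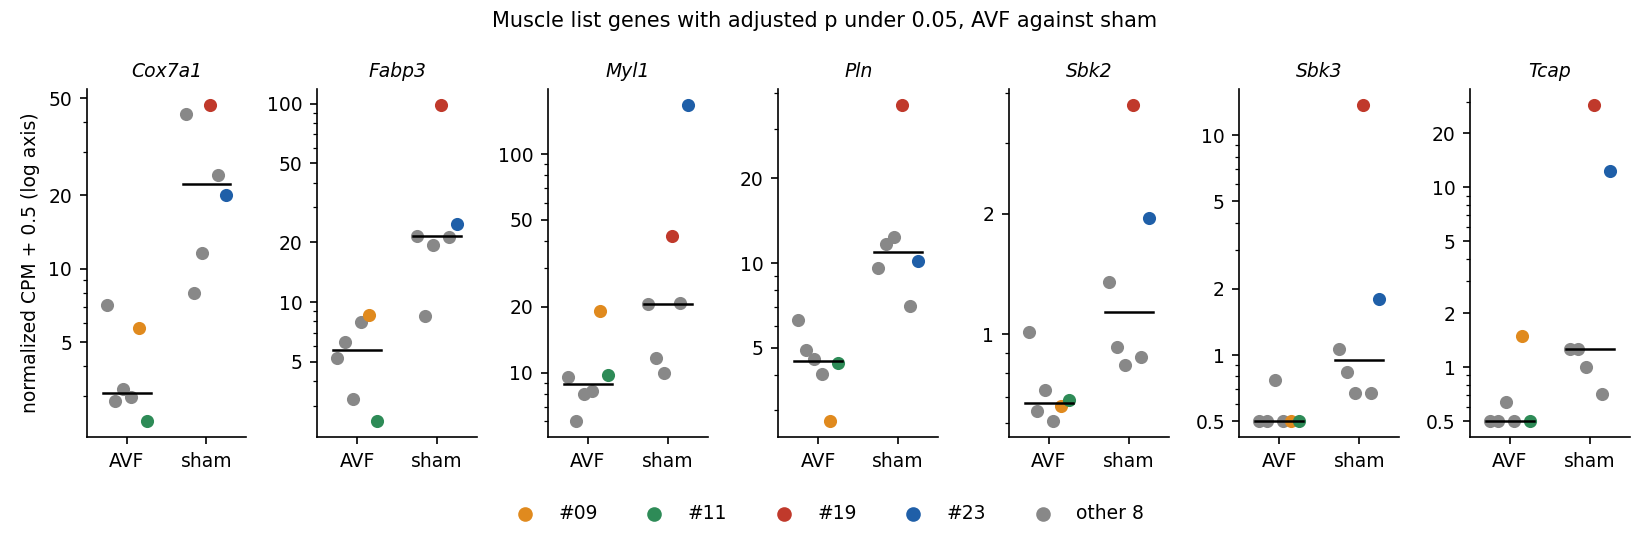
Normalized CPM + 0.5 (log axis) of the 7 list genes called lower in AVF, in the 6 AVF and 6 sham libraries, with a line at each group's median. Cox7a1, Fabp3 and Pln are higher in sham across libraries, while the sham highs of Sbk3, Sbk2, Tcap and Myl1 are samples #19 (red) and #23 (blue).

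The summed level of each list was compared between the groups by an exact two-sided permutation test over all 924 splits, on the mean of log2(summed normalized CPM + 0.5). Heart genes summed to 17.1, 38.0 and 61.5 normalized CPM as lowest, median and highest in AVF and to 37.7, 50.6 and 382 in sham, a difference of -0.90 with an adjusted p of 0.265 over the 5 lists (exact permutation test). Fast skeletal genes summed to 30.4, 38.8 and 107 in AVF and 36.1, 40.6 and 1560 in sham (difference -0.86, exact permutation adjusted p = 0.576), and the sums in the 8 other libraries were 30.4 to 41.6. Without samples #19 and #23 the fast difference turned to 0.25 (exact permutation adjusted p = 0.726). With #09 and #11 left out as well it was -0.14 (exact permutation adjusted p = 0.381). The slow, shared and developmental lists differed by 0.12, -0.87 and -0.73, with exact permutation adjusted p values of 0.881, 0.357 and 0.108, so that no list passed the threshold.

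**Figure D5:**
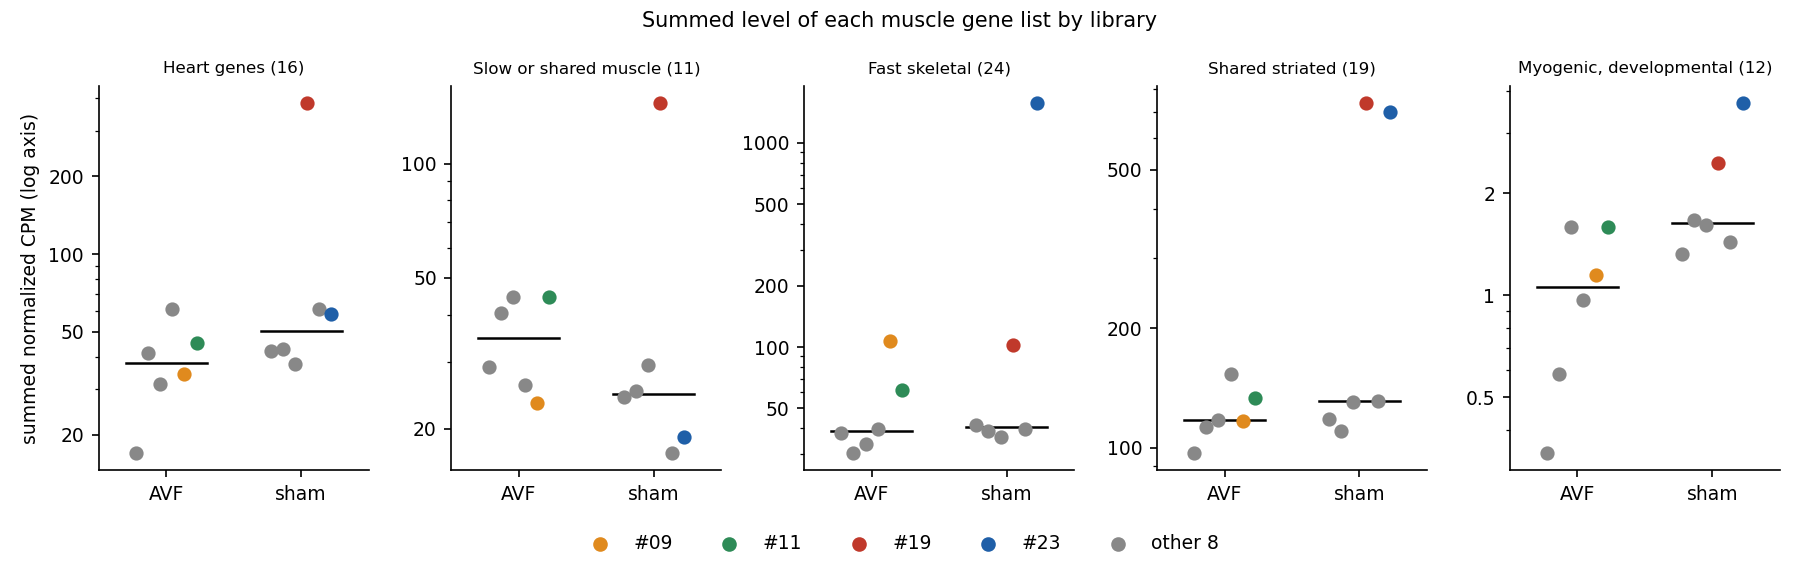
Summed normalized CPM (log axis) of the 5 further muscle gene lists in the 6 AVF and 6 sham libraries, with the group medians as lines and 4 libraries in colour. Sample #19 is highest for heart, slow and shared genes, and #23 for fast and developmental genes. The medians of AVF and sham are 38.0 and 50.6 for heart, 34.8 and 24.7 for slow, 38.8 and 40.6 for fast, 117 and 131 for shared, and 1.06 and 1.64 for developmental genes.

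The 4 libraries that held striated muscle RNA, #09, #11, #19 and #23, were all from female mice, and 4 of the 6 female libraries were thus of this kind and none of the 6 male ones. Of the 82 list genes, 68 were tested between females and males with the operation as a covariate, and 0 were called in either direction by edgeR's quasi-likelihood test (1.5-fold or more, with an adjusted p under 0.05), among 22163 genes of which 0.0451% were called higher and 0.0677% lower in females. At an unadjusted p under 0.05, 41 of the 68 were higher in females and 0 lower, against 7.45% of all 22163 genes in either direction. Part of the 68 passed the filter through the 4 libraries, all female, which favours a higher fitted value in females. The counts over the 68 therefore describe the genes that passed and do not show a higher level in females. DESeq2 called 5 higher, among them Ttn and Xirp2, and 0 lower, while of all 22163 genes it called 54 higher and 75 lower. Without #09, #11, #19 and #23, 48 could be tested, and 4 were higher and 5 lower at an unadjusted p under 0.05, against 9.84% of 20824 genes in either direction.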

How the data were processed

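RNA-seq of 12 IVC libraries was analysed. The authors trimmed the reads (PRINSEQ and Trimmomatic 0.39), aligned them to GRCm39 (STAR 2.7.7a, Ensembl annotation) and deposited RSEM 1.3.3 expected counts, not normalized. These share reads between similar genes. Names, positions and transcript lengths came from GENCODE M39, where 54749 of 55414 identifiers were found. Expected counts were rounded and scaled by TMM in edgeR 4.0.16 (R 4.3.3); DESeq2 1.42.0 was an alternative. AVF against sham used edgeR's quasi-likelihood test on the 15912 genes over 1 CPM in 2 or more samples, and the sexes 22163 genes with more than 12 counts in all, with Benjamini-Hochberg adjustment over all genes tested. On simulated counts for the 15912 genes of AVF against sham, 178 of 200 genes changed 4-fold were recovered with 8 false calls. The 10 genes and the lists were chosen with earlier results of these data known. Named list genes are the 3 highest in any library and up to 5 called genes with the lowest adjusted p per list, the 8 most alike by profile, and the members of counts of at most 5. Mybpc3, Bmp10, Hcn4, Klhl41, Pgam2, Ryr1 and the genes set per kilobase (Myl2, Myl3, Myh7, Myh2, Tnnc1) were named after their values were seen, as were the marker genes Alb and Ucp1. Replicates were separate mice, and no 2 libraries of the same operation and sex agreed within counting noise. Not every list gene is reported by name here.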

Additional observations from a re-analysis of the deposited data

Results flagged for a closer look

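Within the 6 AVF and the 6 sham libraries, 32 of 67 groups of values searched held 1 library far from the other 5 by Dixon's criterion. Chance gives about 1 in 20, but the members and named genes were chosen for high levels in single libraries, so the number is a description and no test against chance. Of these, 14 were sample #19, 11 were #23, 4 were #09, 1 was #11 and 2 were other libraries. Sample #19 stood apart in Myh6 (408 normalized CPM), Myl7 (107), Nppa (42.9) and Tnnt2 (214) of the members. It also stood apart in Myl4 (135), Ryr2 (88.3), Tnni3 (46.5), Sbk3 (13.3), Casq2 (49.4), Pln (36.0), Myoz2 (25.0) and Fabp3 (98.1), and in the sums of the heart list (382) and the slow list (144). Sample #23 stood apart in Acta1 (246), Ckm (110), Mylpf (120), Tnnt3 (283) and Myh4 (602), in Atp2a1 (375), Myl1 (168), Myh1 (154), Xirp2 (142) and Myf6 (0.968), and in the sum of the fast list (1560). Among AVF, sample #09 stood apart in Mylpf (7.06), Myl1 (18.7), Myh1 (16.0) and Tcap (0.986), and #11 in Myh6 (0.469). The remaining 2 were Sbk3 in #06 (0.271) and Sbk2 in #04 (0.514), each from few counts. Acta1, Ckm, Tnnt3 and Myh4 in AVF did not pass this criterion, since #09 and #11 were both high.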

How the results depend on the processing

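The library with the highest level of each member was the same under other scalings, without ribosomal RNA genes and with unrounded counts. The number of list genes called lower in AVF (7, with 817 of all 15912 genes) was 26 by the exact test of edgeR (806 of all) and 16 by DESeq2 (1432). It was 3 without samples #05 and #09 (319 of 15531 genes), without #19 and #23 (271 of 15744), and without all of #09, #11, #19 and #23 (84 of 15270). The latter 2 omissions, added after the data were seen, gave 1 higher in AVF (0 over all 12). Leaving out 1 library gave 3 to 10 lower and 0 to 1 higher. It gave 4 without #04, and 3 without each of #05, #06, #11, #19 and #23. For all genes, 536 DEG were higher and 223 lower in AVF, and leaving out 1 library gave 349 to 608 and 119 to 415 (349 and 351 higher without #05 and #22; 140, 415, 132, 119 and 128 lower without #05, #07, #11, #22 and #23). The higher count was 336 without #19 and #23 and 241 without the 4. The lower count was 361 by the exact test, 408 by DESeq2, 111 without #05 and #09, 99 without #19 and #23, and 32 without the 4. The causes were not tested. The fits that leave libraries out also had fewer samples and fewer genes tested, and the part of this in the counts was not tested either. Between the sexes, DESeq2 called 5 list genes higher in females, and leaving out 1 library gave 0 to 3 higher (3 without #22) and 0 to 0 lower. The summed slow list turned to -0.0152 without a scaling factor, and the fast list to 0.25 without #19 and #23 (log2, AVF minus sham; the cause was not tested). Leaving out 1 library gave differences of -1.06 to -0.40 for heart, -0.0468 to 0.56 for slow, -1.11 to -0.02 for fast, -1.07 to -0.52 for shared and -0.83 to -0.57 for developmental genes, and no list passed an adjusted p of 0.05 in any of these.

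Mice of the same number and sex shared only a number: their deviations from the group means correlated at -0.14 to 0.26 over 6 pairs, and 2 of 6 correlated best with their own number. A replicate block by that number gave 4 list genes lower in AVF (Cox7a1, Fabp3, Pln and Tbx20), among 676 of all 15912 genes. Between the sexes it gave 4 higher in females (Atp2a1, Cacna1s, Ttn and Xirp2), among 20 of all 22163 genes. Levels below 3 counts per library were not detectable at this depth.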
